A study of Mus musculus with 6 samples.

Results

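The Toll-like receptors and the LPS co-receptors were read across 3 genotypes of mouse macrophages. The group holds 10 genes chosen by name from the 23337 rows of the deposited count table: Tlr4, Ly96 and Cd14 for the LPS receptor complex, Tlr2, Tlr1 and Tlr6 for bacterial lipopeptides, and Tlr7, Tlr8, Tlr9 and Tlr13 for nucleic acids. All 10 passed the low-count filter in the fit of 12923 genes.

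The cells were bone marrow-derived macrophages, which are grown from marrow with the growth factor M-CSF, on day 7 of culture. The LXRdKO cells lack both liver X receptors, the oxysterol-sensing nuclear receptors encoded by Nr1h3 and Nr1h2. The Ch25hKO cells lack Ch25h, whose enzyme makes 25-hydroxycholesterol. The WT cells are wild type. All 3 groups were of the C57BL/6 strain and all were treated with LPS from E. coli at 100 ng/ml for 8 h, so no value here is an unstimulated level or a response to LPS. The sources used here do not give how the deletions were made or whether cultures or animals were pooled.

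Toll-like receptors are membrane proteins that bind microbial molecules through leucine-rich repeats and signal through adaptors such as MyD88 and TRIF. TLR4 binds LPS together with MD-2, the product of Ly96, after CD14 has passed the lipid on, while TLR2 pairs with TLR1 or TLR6 to bind bacterial lipopeptides. TLR7, TLR9 and, in the mouse, TLR13 sense RNA or DNA in endosomes, which they reach with the help of UNC93B1, and endosomal proteases cut TLR9 before it signals.

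Each group had 2 libraries, with 41650513 to 45872964 counts per library. Nothing in the labels tells whether a pair of libraries stems from separate animals or cultures. The p-values therefore cover the spread within these pairs and no more, and that spread may be technical. It exceeded sampling noise in each genotype. The deleted genes matched the labels: Nr1h3 and Nr1h2 stood at 5.64% and 2.59% of the WT level in LXRdKO, and Ch25h stood at 1.61% of it in Ch25hKO. Xist lay between 1208 and 1688 CPM and 4 Y-linked genes had at most 5 counts in every library, so sex did not separate the groups for the X-linked Tlr7, Tlr8 and Tlr13. The 10 macrophage markers summed to 16757 CPM or more in every library, most of it from Lyz2 alone, while the 7 B cell markers summed to 1.22 CPM or less. In bulk RNA, fewer cells that carry a transcript and less of it per cell cannot be told apart.

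Start-site windows from RefSeq (GRCm38.p6), from 250 bases before to 50 after the start, were used for 6 of the 10 genes. These were Tlr1, Tlr2, Tlr6, Tlr8, Tlr9 and Tlr13. The windows of Tlr9, Tlr13 and Tlr8 are shown because these 3 genes were higher in LXRdKO and lower in Ch25hKO than in WT. Beside them are set a window of Tlr1, which was higher in both knockouts, and that of Tlr2. Tlr2 was higher in Ch25hKO than in WT and lower in LXRdKO than in Ch25hKO. Another window of Tlr1, chr5:64932650-64932949, held no match to a searched motif and is not shown. Each window shown is written on the strand of its gene, and capitals mark the matches to a searched motif on either strand.
Tlr9, chr9:106222348-106222647, plus strand: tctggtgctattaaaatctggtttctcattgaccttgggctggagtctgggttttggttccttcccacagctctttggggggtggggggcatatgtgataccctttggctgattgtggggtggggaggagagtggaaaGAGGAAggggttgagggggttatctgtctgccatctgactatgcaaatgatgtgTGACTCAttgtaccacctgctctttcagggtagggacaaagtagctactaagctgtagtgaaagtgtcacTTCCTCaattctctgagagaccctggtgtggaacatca
Tlr13, chrX:106143025-106143324, plus strand: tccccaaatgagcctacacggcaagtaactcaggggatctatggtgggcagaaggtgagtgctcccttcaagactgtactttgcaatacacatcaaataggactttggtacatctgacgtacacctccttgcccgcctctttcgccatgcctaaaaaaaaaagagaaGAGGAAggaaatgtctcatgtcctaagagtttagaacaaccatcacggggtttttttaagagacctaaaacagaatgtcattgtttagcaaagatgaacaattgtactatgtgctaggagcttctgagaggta
Tlr8, chrX:167264280-167264579, minus strand: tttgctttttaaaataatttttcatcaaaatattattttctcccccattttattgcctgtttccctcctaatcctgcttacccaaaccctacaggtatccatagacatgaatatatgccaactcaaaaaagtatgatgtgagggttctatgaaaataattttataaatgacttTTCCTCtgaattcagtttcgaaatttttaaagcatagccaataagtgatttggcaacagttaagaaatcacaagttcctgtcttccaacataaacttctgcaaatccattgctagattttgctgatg
Tlr1, chr5:64933509-64933808, minus strand: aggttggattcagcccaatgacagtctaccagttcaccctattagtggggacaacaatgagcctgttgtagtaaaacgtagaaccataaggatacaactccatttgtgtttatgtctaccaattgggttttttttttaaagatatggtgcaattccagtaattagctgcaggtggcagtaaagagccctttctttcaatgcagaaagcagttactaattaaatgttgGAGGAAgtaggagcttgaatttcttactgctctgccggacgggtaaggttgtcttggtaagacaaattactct
Tlr2, chr3:83841559-83841858, minus strand: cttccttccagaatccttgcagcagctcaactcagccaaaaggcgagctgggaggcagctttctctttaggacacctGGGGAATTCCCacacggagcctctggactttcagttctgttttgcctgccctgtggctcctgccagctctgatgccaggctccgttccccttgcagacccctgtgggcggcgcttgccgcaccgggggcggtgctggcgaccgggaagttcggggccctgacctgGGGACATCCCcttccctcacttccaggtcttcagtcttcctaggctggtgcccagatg

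Positions count the first transcribed base as 1 and give the leftmost base of each match. The core site of PU.1 (GAGGAA), a factor that directs macrophage genes, was matched at -112 and 13 in Tlr9, at -83 in Tlr13, at -77 in Tlr8 and at -23 in Tlr1, and 28.3% of the 32851 mouse windows of this length hold it. The AP-1 letters TGANTCA were matched at -58 in Tlr9, against 7.81% of windows. The NF-kB consensus was matched in Tlr2 at -8 and, as overlapping matches, at -173 and -172, against 4.51% of windows. The interferon-stimulated response element (GAAA, any 2 bases, GAAA) was matched in a window of Tlr6 (not shown) at -116 and -110, against 3.44% of windows. The LXR direct repeat (AGGTCA, any 4 bases, AGGTCA), held by 0.0152% of windows, and the sterol regulatory element (ATCAC, any base, CCAC), held by 0.234%, were matched in none of the windows of these 6 genes.

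Most of the family was higher in cells without the LXRs. Of the 10 genes, 8 rose in LXRdKO against WT, 0 fell and Tlr2 and Cd14 did not pass the test, while 16.4% of all tested genes were higher and 15.5% lower (31.8% either way). The same counts were obtained with DESeq2 and limma-voom, and no gene of the 10 was lower at an unadjusted p under 0.05. Cells without Ch25h showed a split instead: Tlr1, Ly96, Tlr4 and Tlr2 rose, Tlr9, Tlr13 and Tlr8 fell, and Tlr6, Tlr7 and Cd14 did not pass, beside 19.8% of all tested genes higher and 19.5% lower (39.3% either way). Set directly against Ch25hKO, LXRdKO was higher in 7 genes and lower in Tlr2, beside 19.3% of tested genes higher and 18.6% lower (37.9% either way). The median log2 fold change of the 10 was 0.47 for LXRdKO against WT, 0.07 for Ch25hKO against WT and 0.35 for LXRdKO against Ch25hKO, where the medians over all tested genes were 0.0026, 0.0064 and -0.013. The differences of both knockouts from WT share the WT libraries and are not independent of each other.

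**Figure D1:**
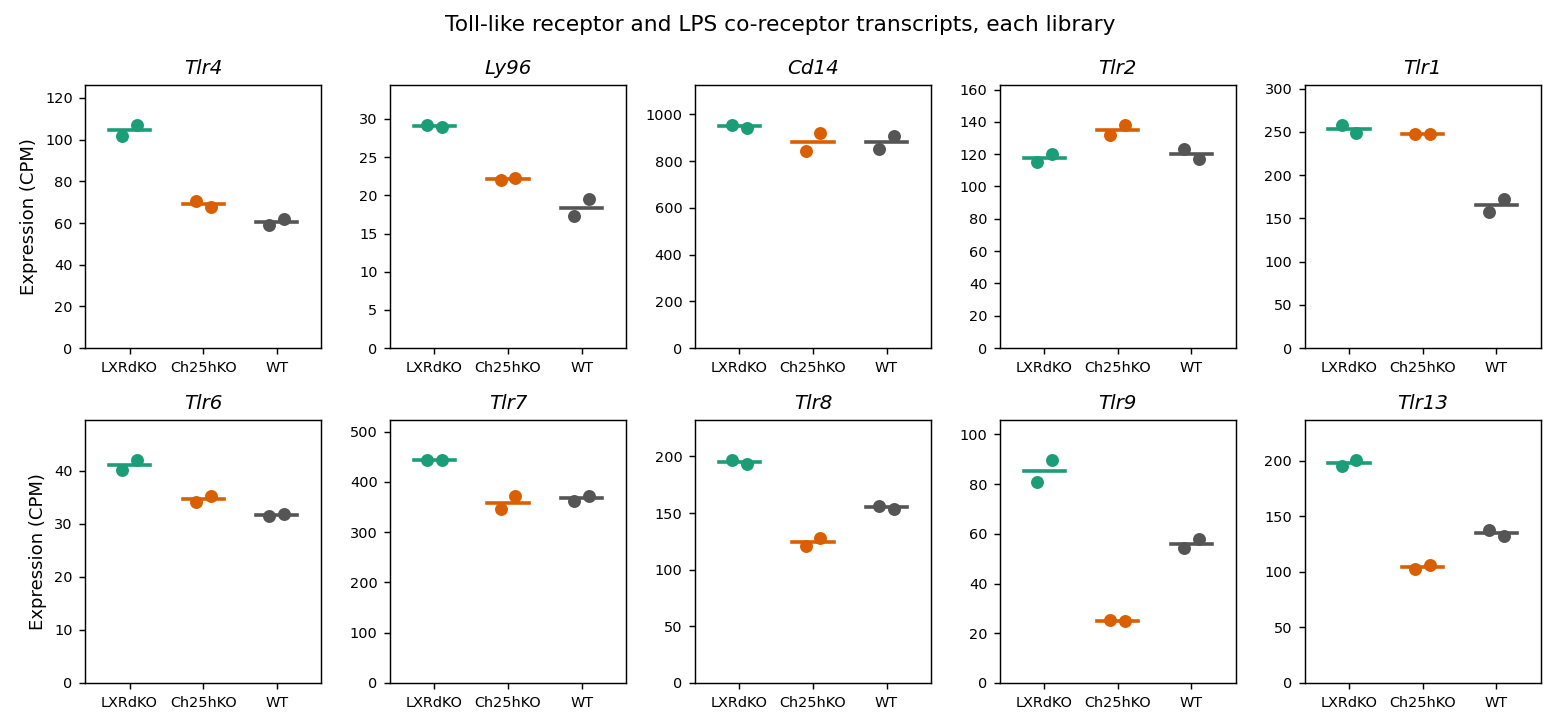
Expression of each gene in CPM (counts relative to the scaled library size; y axes from 0) in each of the 6 libraries, by genotype; points are libraries and bars are group means. The LXRdKO libraries are the highest for every gene but Tlr2, though close to the next library for Tlr1 and Cd14. The Ch25hKO libraries are the lowest for Tlr8, Tlr9 and Tlr13.

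Expression is in CPM, and each log2 fold change carries its standard error (n = 2 libraries in a group). The adjusted p is that of edgeR's quasi-likelihood test, two-sided, adjusted by Benjamini-Hochberg over all tested genes, with a threshold of 0.05.

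Of the LPS receptor complex, the receptor and its lipid-binding subunit rose while the co-receptor that hands over LPS did not pass the test. Tlr4 (ENSMUSG00000039005.13, chromosome 4, 66827584 to 66930284, plus strand, GRCm38) had 102 and 107 CPM in LXRdKO, 70.5 and 67.5 CPM in Ch25hKO, and 59.1 and 62.1 CPM in WT. The 3 genotypes did not overlap, with LXRdKO highest and WT lowest. Tlr4 rose 1.73-fold in LXRdKO against WT (0.79 ± 0.05, edgeR adjusted p = 5.07e-09), the largest increase of the 10 genes there, and 1.85% of tested genes lay at least as far up. It rose by a smaller amount in Ch25hKO against WT (0.19 ± 0.05, edgeR adjusted p = 0.0108), but not without Ch25hKO replicate 1 (edgeR adjusted p = 0.158; range over all alternatives 0.00286 to 0.158). It was 1.52-fold higher in LXRdKO than in Ch25hKO (edgeR adjusted p = 7.33e-08).

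Ly96 (ENSMUSG00000025779.10, chromosome 1, 16688051 to 16709611, plus strand) showed the same order as Tlr4. It had 29.2 and 28.9 CPM in LXRdKO, 22.0 and 22.3 CPM in Ch25hKO, and 17.3 and 19.5 CPM in WT. No genotype overlapped another, and the WT libraries were the furthest apart. Ly96 rose 1.58-fold in LXRdKO against WT (0.66 ± 0.07, edgeR adjusted p = 1.12e-06) and 1.20-fold in Ch25hKO against WT (0.27 ± 0.07, edgeR adjusted p = 0.00586). The Ch25hKO call was lost without WT replicate 1 (edgeR adjusted p = 0.0586; range 0.000439 to 0.0586). LXRdKO was 1.31-fold above Ch25hKO (edgeR adjusted p = 0.000176).

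Cd14 (ENSMUSG00000051439.7, chromosome 18, 36725067 to 36726798, minus strand) had 954 and 942 CPM in LXRdKO, 843 and 922 CPM in Ch25hKO, and 852 and 908 CPM in WT. The Ch25hKO and WT libraries overlapped, and both LXRdKO libraries lay above the other 4. None of the 3 comparisons passed the test. The 95% interval of the log2 fold change ran from -0.02 to 0.23 for LXRdKO against WT, from -0.12 to 0.13 for Ch25hKO against WT and from -0.02 to 0.23 for LXRdKO against Ch25hKO. Per kilobase of exon, Cd14 stood at 29.1 ± 1.12 times the level of Tlr4 in LXRdKO, 41.1 ± 3.83 times in Ch25hKO and 46.6 ± 0.458 times in WT (SD, n = 2). Ly96 over Tlr4 on the same scale was 1.51 ± 0.0580 in LXRdKO, 1.75 ± 0.0672 in Ch25hKO and 1.65 ± 0.0812 in WT (SD, n = 2).

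The lipopeptide receptors did not move together. Tlr1 (ENSMUSG00000044827.10, chromosome 5, 64924679 to 64933563, minus strand), the partner of TLR2 for triacylated lipopeptides, had 258 and 249 CPM in LXRdKO, 248 and 248 CPM in Ch25hKO, and 158 and 172 CPM in WT. All 4 knockout libraries lay above both WT libraries. Tlr1 rose 1.53-fold in LXRdKO (0.62 ± 0.05, edgeR adjusted p = 1.4e-07) and to 150.0% of the WT level in Ch25hKO (0.58 ± 0.05, edgeR adjusted p = 1.8e-07), its increase there being the largest of the 10 genes. The knockouts did not differ from each other past the threshold (0.03 ± 0.05, 95% interval -0.08 to 0.15, edgeR adjusted p = 0.683).

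Tlr2 (ENSMUSG00000027995.10, chromosome 3, 83836272 to 83841767, minus strand), the shared subunit, had 115 and 120.1 CPM in LXRdKO, 132 and 138 CPM in Ch25hKO, and 123 and 117 CPM in WT. The LXRdKO and WT libraries overlapped, and both Ch25hKO libraries lay above them. Tlr2 did not pass in LXRdKO against WT (-0.03 ± 0.05, 95% interval -0.14 to 0.08). It rose in Ch25hKO against WT (0.17 ± 0.05, edgeR adjusted p = 0.0139) and was lower in LXRdKO than in Ch25hKO (-0.20 ± 0.05, edgeR adjusted p = 0.00514). The first of these calls was lost without WT replicate 2, Ch25hKO replicate 1 or Ch25hKO replicate 2 (edgeR adjusted p = 0.0622, 0.0628 and 0.147; range 0.00193 to 0.147). The other was lost without Ch25hKO replicate 2 or LXRdKO replicate 1 (edgeR adjusted p = 0.0834 and 0.082; range 0.000139 to 0.0834).

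Tlr6 (ENSMUSG00000051498.6, chromosome 5, 64952031 to 64960097, minus strand), the partner of TLR2 for diacylated lipopeptides, had 40.1 and 42.1 CPM in LXRdKO, 34.1 and 35.3 CPM in Ch25hKO, and 31.5 and 31.9 CPM in WT. The groups did not overlap. Tlr6 rose 1.30-fold in LXRdKO against WT (0.38 ± 0.06, edgeR adjusted p = 7.78e-05) and did not pass in Ch25hKO against WT (0.13 ± 0.06, edgeR adjusted p = 0.0831). It was higher in LXRdKO than in Ch25hKO (0.24 ± 0.06, edgeR adjusted p = 0.00254), a call lost without LXRdKO replicate 2 (edgeR adjusted p = 0.0524; range 0.000164 to 0.0524).

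Tlr1 and Tlr6 lie next to each other, 18.5 kb apart, and share sequence. Of the 50-base stretches of Tlr1 transcripts, 15.4% occur in another gene's transcripts, and of those of Tlr6 12.3%, with most of those in the other receptor. Their longest identical stretch is 229 bases inside a coding exon of each gene, at chr5:64925537-64925765 in Tlr1 and chr5:64953828-64954056 in Tlr6. The sources used here do not give how reads that match both were counted, so the values of Tlr1 and Tlr6 are uncertain to that extent. On their other sides lie Klf3, 91.8 kb from Tlr1, and Fam114a1, 9.97 kb from Tlr6, chosen as neighbours after the data were seen. Klf3 rose in LXRdKO (0.56 ± 0.05, edgeR adjusted p = 3.3e-07) and in Ch25hKO (0.66 ± 0.05, edgeR adjusted p = 2.94e-08) against WT, as Tlr1 did. Fam114a1 did not pass in LXRdKO (0.03 ± 0.06) and rose in Ch25hKO (0.38 ± 0.06, edgeR adjusted p = 3.53e-05) against WT. Of the other 8 genes of the group, Tlr4 shared 0.216% of such stretches and the rest shared none.

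The ratio of each partner to Tlr2 was taken per kilobase of exon, as a description chosen after the values were seen. Tlr1 stood at 1.94 ± 0.106 times the level of Tlr2 in LXRdKO, 1.65 ± 0.0478 times in Ch25hKO and 1.24 ± 0.117 times in WT (SD, n = 2). Tlr6 stood at 0.282 ± 0.00159 times the level of Tlr2 in LXRdKO, 0.208 ± 0.00115 times in Ch25hKO and 0.214 ± 0.00894 times in WT (SD, n = 2). Both ratios were highest in LXRdKO, and the ratio of Tlr6 to Tlr2 was close to that of WT in Ch25hKO.

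The nucleic acid sensors moved in opposite directions in the knockouts. Tlr9, Tlr13 and Tlr8 were higher in LXRdKO and lower in Ch25hKO than in WT, while Tlr7 was higher in LXRdKO and did not pass in Ch25hKO. The difference between the knockouts itself passed the threshold for all 4. Tlr9 (ENSMUSG00000045322.10, chromosome 9, 106222598 to 106226883, plus strand), the sensor of unmethylated CpG DNA, had 80.7 and 89.8 CPM in LXRdKO, 25.4 and 24.8 CPM in Ch25hKO, and 54.4 and 57.8 CPM in WT. The 3 genotypes were far apart, with no overlap. Tlr9 fell 2.23-fold in Ch25hKO against WT (-1.16 ± 0.06, edgeR adjusted p = 3.05e-10), the largest change of the 10 genes there, and 2.66% of tested genes lay at least as far down. It rose 1.52-fold in LXRdKO against WT (0.60 ± 0.06, edgeR adjusted p = 5.39e-07).

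Between the knockouts, Tlr9 was 3.39-fold higher in LXRdKO than in Ch25hKO (1.76 ± 0.06, edgeR adjusted p = 3.34e-13), and 0.387% of tested genes lay at least as far up. Its log2 fold change over all alternatives ran from 0.53 to 0.68 in LXRdKO against WT, from -1.20 to -1.13 in Ch25hKO against WT, and from 1.68 to 1.84 between the knockouts. The nearest tested genes on either side were Alas1, 6.57 kb away, and Twf2, 7.21 kb away, chosen as neighbours after the data were seen. In LXRdKO against WT, Alas1 was lower (-0.20 ± 0.05, edgeR adjusted p = 0.00497) and Twf2 higher (0.40 ± 0.07, edgeR adjusted p = 0.000243). In Ch25hKO against WT, Alas1 did not pass (0.06 ± 0.05) and Twf2 was higher (0.29 ± 0.07, edgeR adjusted p = 0.00304), so neither neighbour fell there with Tlr9.

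Tlr13 (ENSMUSG00000033777.4, chromosome X, 106143204 to 106160493, plus strand), a receptor of the mouse that senses bacterial ribosomal RNA, had 195 and 201 CPM in LXRdKO, 103 and 106 CPM in Ch25hKO, and 138 and 132 CPM in WT. Its 3 groups did not overlap. It rose 1.47-fold in LXRdKO against WT (0.55 ± 0.05, edgeR adjusted p = 2.21e-07) and fell 1.30-fold in Ch25hKO against WT (-0.38 ± 0.05, edgeR adjusted p = 1.57e-05). LXRdKO was 1.90-fold above Ch25hKO (0.93 ± 0.05, edgeR adjusted p = 1.49e-10), with 3.09% of tested genes at least as far up.

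Tlr8 (ENSMUSG00000040522.5, chromosome X, 167242696 to 167264329, minus strand), known from human cells as a sensor of RNA, had 197 and 193 CPM in LXRdKO, 121 and 128 CPM in Ch25hKO, and 156 and 154 CPM in WT. The order of the groups was that of Tlr9 and Tlr13, without overlap. Tlr8 rose 1.26-fold in LXRdKO against WT (0.33 ± 0.05, edgeR adjusted p = 7.52e-05), fell to 80.1% of the WT level in Ch25hKO (-0.32 ± 0.05, edgeR adjusted p = 8.11e-05) and was 1.57-fold higher in LXRdKO than in Ch25hKO (edgeR adjusted p = 1.52e-08).

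Tlr7 (ENSMUSG00000044583.13, chromosome X, 167304929 to 167330558, minus strand), a sensor of single-stranded RNA, lies 40.6 kb from Tlr8. It had 444 and 444 CPM in LXRdKO, 347 and 371 CPM in Ch25hKO, and 363 and 372 CPM in WT. The Ch25hKO and WT libraries overlapped and the LXRdKO libraries lay above both. Tlr7 rose 1.21-fold in LXRdKO against WT (0.27 ± 0.05, edgeR adjusted p = 0.000702), did not pass in Ch25hKO against WT (-0.03 ± 0.05, 95% interval -0.15 to 0.08, edgeR adjusted p = 0.646) and was 1.24-fold higher in LXRdKO than in Ch25hKO (edgeR adjusted p = 0.000156).

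**Figure D2:**
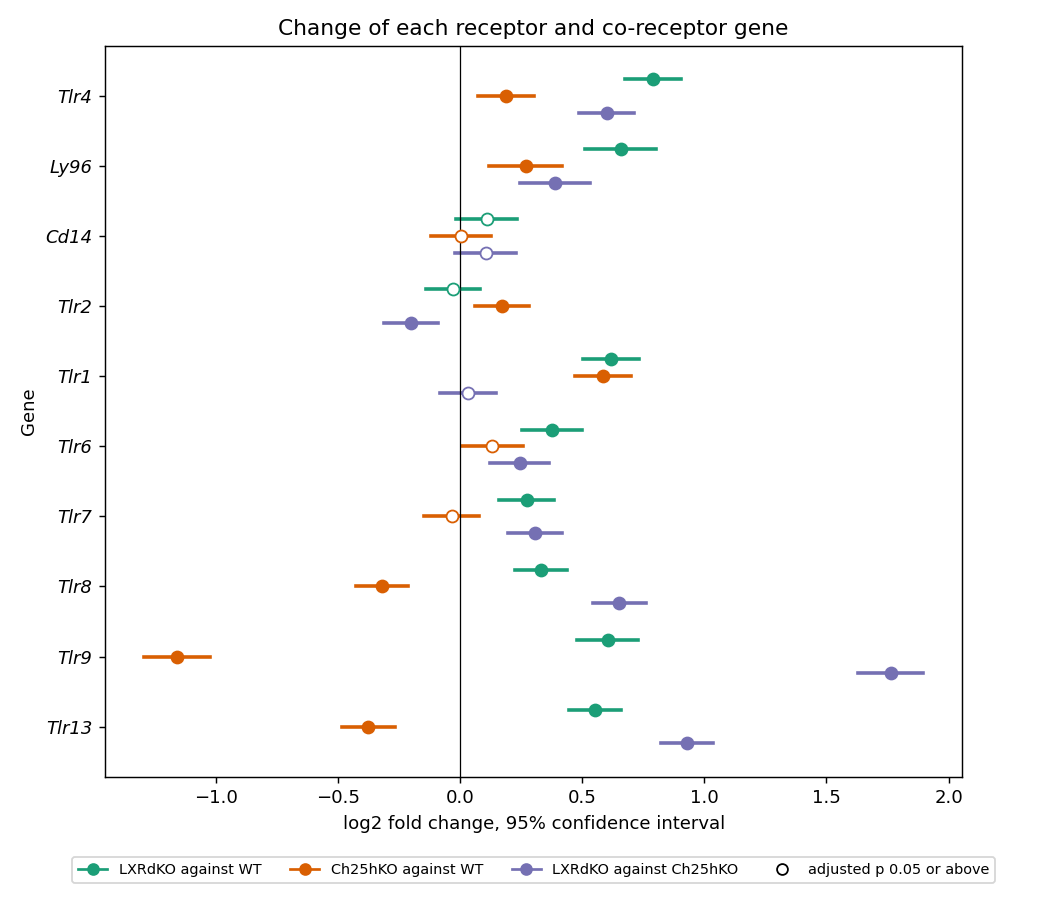
Log2 fold change of each gene (x axis) with its 95% confidence interval in the 3 comparisons; filled points passed the threshold of 0.05 on the adjusted p and open points did not. In Ch25hKO against WT, Tlr9 stands furthest left at -1.16, while in LXRdKO against WT the points of all genes but Cd14 and Tlr2 lie to the right of 0 and are filled.

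Relative to Tlr7 on the scale per kilobase of exon, the other sensors stood lower in Ch25hKO than in the other genotypes. Tlr9 stood at 0.225 ± 0.0168 of the level of Tlr7 in LXRdKO, 0.0822 ± 0.0052 in Ch25hKO and 0.179 ± 0.00458 in WT (SD, n = 2). Tlr8 stood at 0.500 ± 0.00694 of it in LXRdKO, 0.394 ± 0.00328 in Ch25hKO and 0.480 ± 0.0143 in WT, and Tlr13 at 0.423 ± 0.0084, 0.275 ± 0.00745 and 0.349 ± 0.0164 in the same order of genotypes (SD, n = 2). These ratios were chosen after the values were seen and were not tested.

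Summed over Tlr7, Tlr8, Tlr9 and Tlr13, the nucleic acid sensors came to 232 and 235 CPM per kilobase in LXRdKO, 149.9 and 158 in Ch25hKO, and 180.3 and 181 in WT. The cell surface receptors Tlr1, Tlr2, Tlr4 and Tlr6 summed to 145 and 145 CPM per kilobase in LXRdKO, 139.9 and 141 in Ch25hKO, and 107 and 110.1 in WT. The surface sum was therefore above WT in all 4 knockout libraries, while the sensor sum lay above WT in LXRdKO and below it in Ch25hKO. Most of the surface difference lay in Tlr1, at means of 75.7 CPM per kilobase in LXRdKO, 74.1 in Ch25hKO and 49.4 in WT. The sensor sum leaves out Tlr3, not one of the 10 genes, at 65.6 in LXRdKO, 37.0 in Ch25hKO and 62.2 in WT. The sums and their ratio were not tested. Sensors over surface receptors came to 1.61 and 1.63 in LXRdKO, 1.07 and 1.12 in Ch25hKO, and 1.68 and 1.65 in WT, so Ch25hKO stood apart and LXRdKO lay just under WT.

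**Figure D3:**
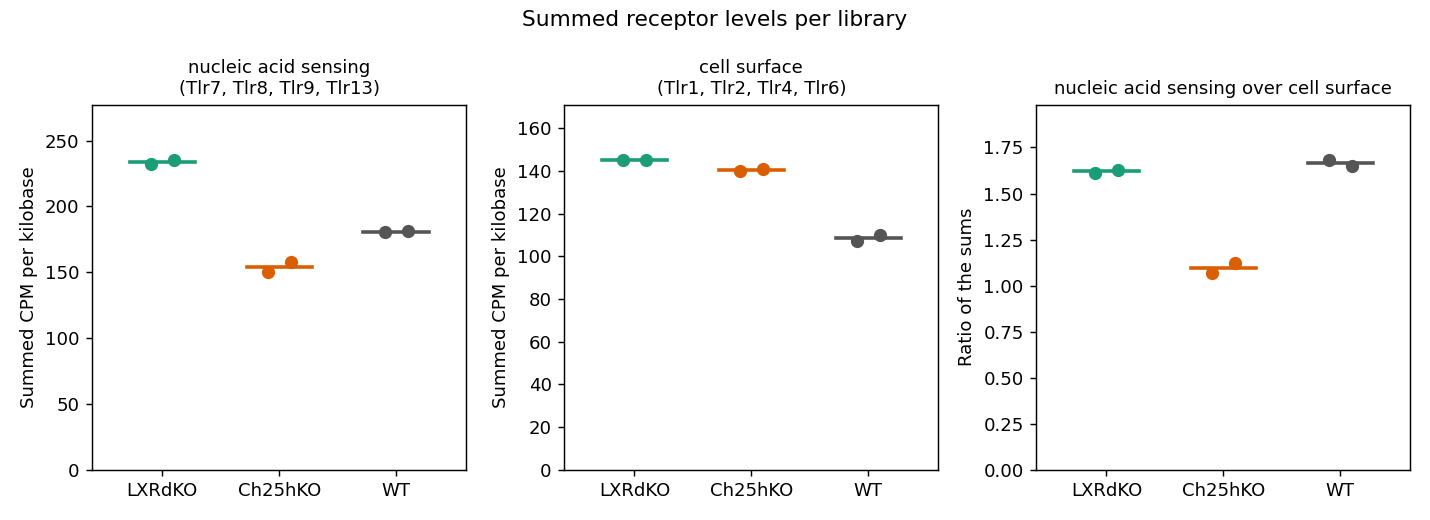
Summed levels of the nucleic acid sensors and of the cell surface receptors in CPM per kilobase of exon, and the ratio of the sums (y axes from 0), by genotype; points are libraries and bars are group means. The ratio lies at 1.07 and 1.12 in Ch25hKO and at 1.61 to 1.68 in the other 4 libraries.

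Levels differed widely among the 10 genes when set per kilobase of exon, with exon lengths from GENCODE M21. In WT, Cd14 was the most abundant at 508 ± 22.8 CPM per kilobase, followed by Tlr7 at 90.1 ± 1.54, Tlr1 at 49.4 ± 3.02, Tlr8 at 43.2 ± 0.546 and Tlr2 at 39.8 ± 1.31 (SD, n = 2). Lower levels were those of Tlr13 at 31.4 ± 0.937, Ly96 at 18.0 ± 1.52, Tlr9 at 16.1 ± 0.689, Tlr4 at 10.9 ± 0.383 and Tlr6 at 8.50 ± 0.0756 (SD, n = 2). No library of any gene overlapped a library of its neighbour in the order, in any genotype. Cd14, Tlr7 and Tlr1 kept ranks 1 to 3 in all 3 genotypes. Tlr9 was rank 8 in LXRdKO and in WT and rank 10, at 7.22 ± 0.122 CPM per kilobase, in Ch25hKO. With the length of the longest transcript in place of all exons, Tlr2 and Ly96 and also Tlr9 and Tlr4 changed places in LXRdKO, and Tlr13 and Ly96 in Ch25hKO.

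**Figure D4:**
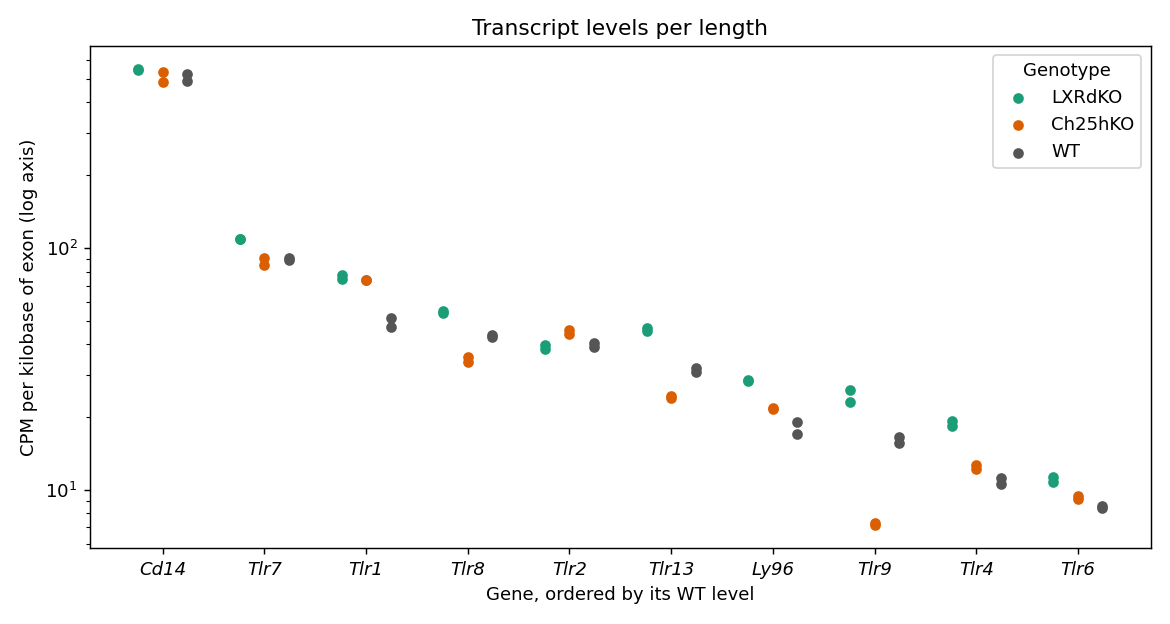
Level of each gene in CPM per kilobase of exon (log axis) in the 6 libraries, coloured by genotype, with genes ordered by their WT level. Cd14 lies near 508 CPM per kilobase in WT and Tlr6 at 8.50, and Tlr9 in Ch25hKO lies lowest of all points at 7.14 and 7.31.

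Among Toll-like receptors outside the 10, Tlr3, the endosomal sensor of double-stranded RNA, had 323 and 360 CPM in LXRdKO, 185 and 200 CPM in Ch25hKO, and 329 and 319 CPM in WT. Like Tlr8, Tlr9 and Tlr13 it fell in Ch25hKO against WT (-0.75 ± 0.06, edgeR adjusted p = 3.05e-08), but it did not pass in LXRdKO against WT (0.08 ± 0.06, edgeR adjusted p = 0.36). Tlr5 had 15 and 23 counts in LXRdKO, 0 and 1 in Ch25hKO, and 7 and 6 in WT. Tlr11 had 30 and 49 counts in LXRdKO, 5 and 12 in Ch25hKO, and 14 and 22 in WT, and Tlr12 had 6 counts or fewer in every library. Their fits moved with the alternatives and no fold is given for them.

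Markers of cell types also differed between the genotypes, and their counts here and below are to be read against the shares of all tested genes. Those shares were 16.4% higher and 15.5% lower in LXRdKO, and 19.8% higher and 19.5% lower in Ch25hKO, each against WT. Of 10 macrophage markers, 9 were higher in LXRdKO than in WT, with a median log2 fold change of 0.28 (0.24 to 0.30 over the alternatives). With the replicate block or a fit of the 4 libraries alone 7 were higher, and fewer than 9 with either LXRdKO library left out. The sums of the 10 markers, most of each from Lyz2 alone, ran from 20128 to 20278 CPM in LXRdKO and from 16757 to 18211 CPM in WT. In Ch25hKO, 2 were higher and 3 lower than in WT (1 higher and 2 lower without Ch25hKO replicate 1), with sums of 16780 to 17354 CPM. The marker Itgam is also in the list of accessory molecules. The markers did not move as a block in Ch25hKO. The clearance receptor Mertk was at 0.65 ± 0.06 in LXRdKO and -0.51 ± 0.06 in Ch25hKO against WT, and the Fc receptor Fcgr1 at 0.22 ± 0.06 in LXRdKO and -0.26 ± 0.06 in Ch25hKO. The scavenger receptor Cd163 was higher in both, at 1.05 ± 0.15 in LXRdKO and 1.30 ± 0.15 in Ch25hKO. Its level was low, at 1.69 and 1.77 CPM in WT and at most 4.38 CPM in any library. Emr1, which encodes F4/80, was also higher in both, at 0.17 ± 0.05 in LXRdKO and 0.20 ± 0.05 in Ch25hKO. All 8 of these changes passed the threshold.

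Plasmacytoid dendritic cells and B cells are known for Tlr7 and Tlr9. Of 8 tested plasmacytoid markers, 3 fell and 5 did not pass in Ch25hKO against WT (1 fell without Ch25hKO replicate 2), and none of the 8 passed in LXRdKO against WT by edgeR (0 at an unadjusted p under 0.05, 0 with DESeq2 and limma-voom, and 2 lower without WT replicate 1). The 9 markers of that list summed to 219 to 233 CPM in LXRdKO, 173 to 178 CPM in Ch25hKO and 217 to 222 CPM in WT. Only 2 of the 9 were kept at a minimum of 5 CPM in 2 or more libraries, so the sums rest mostly on those 2. No marker of the list was at 0, but Klk1 had at most 30 counts in all libraries. Siglech, a defining marker, had 10 and 15 counts in LXRdKO, 13 and 13 in Ch25hKO, and 17 and 23 in WT. Of 7 B cell markers, 5 had at most 30 counts in all libraries, Cd79a and Pax5 among them.

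Other cell types were represented at low levels. The 8 conventional dendritic cell markers summed to 26.1 to 27.3 CPM in LXRdKO, 22.3 to 22.6 in Ch25hKO and 38.9 to 40.5 in WT. Stromal markers summed to 14.0 to 15.5 CPM in LXRdKO, 27.3 to 30.3 in Ch25hKO and 11.9 to 12.4 in WT, and neutrophil markers to at least 19.5 CPM in LXRdKO, at least 52.4 in Ch25hKO and at least 39.6 in WT. Of the tested markers, 3 of 7 for conventional dendritic cells fell in LXRdKO against WT and 4 of 7 in Ch25hKO against WT. For neutrophils, 4 of 5 fell in LXRdKO against WT, but 1 with DESeq2, and fewer than 4 with either LXRdKO library left out. In Ch25hKO against WT, 1 of the 5 neutrophil markers rose, near the share of all genes, and 0 fell. Of the stromal markers, 5 of 5 rose in Ch25hKO against WT (4 with DESeq2) and 2 of 5 in LXRdKO against WT (1 with DESeq2). T and NK cell markers summed to at most 5.36 CPM, mast cell and basophil markers to at most 1.40 CPM, with Mcpt4 at 0, and erythroid and megakaryocyte markers to at most 41.4 CPM, with Hba-a1 and Hbb-b1 among those at 0. The part of these marker differences in the changes of the receptor genes was not tested.

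The genes that act with the receptors were read from 4 lists, whose shares are to be read against the 16.4% of all tested genes higher and 15.5% lower in LXRdKO, and the 19.8% higher and 19.5% lower in Ch25hKO. Of 17 tested accessory molecules that bind ligands, 9 rose and 2 fell in LXRdKO against WT (52.9% and 11.8%), with a median of 0.16 (0.15 to 0.21 over the alternatives). With DESeq2, RLE scaling, the replicate block or a fit of the 4 libraries alone 8 rose, and with no filter 10. Fewer than 9 rose with either LXRdKO library left out. In this list Ly86, which encodes MD-1, the MD-2 relative that pairs with CD180, rose by 0.56 ± 0.05 in LXRdKO. The fungal glucan receptor Clec7a rose by 0.54 ± 0.07, and the scavenger receptor Cd36 fell by 0.60 ± 0.05 on the log2 scale. In Ch25hKO against WT, 3 rose and 5 fell (17.6% and 29.4%), with a median of 0.03 (-0.03 to 0.07). Cd180 fell 1.74-fold (-0.80 ± 0.06), Cd300lf, a receptor for lipids, fell 2.18-fold (-1.13 ± 0.06) and Cd36 fell by 0.49 ± 0.05 on the log2 scale. Cd180 averaged 654 ± 29.1 CPM in LXRdKO, 309 ± 19.9 CPM in Ch25hKO and 538 ± 13.2 CPM in WT (SD, n = 2).

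Of 16 tested genes of trafficking and processing, 3 rose and 1 fell in LXRdKO against WT (18.8% and 6.25%), and 1 rose and 5 fell in Ch25hKO against WT (6.25% and 31.2%). The share that rose in LXRdKO was near that of all genes. The median was -0.07 in LXRdKO, with 0.01 without WT replicate 1 and -0.13 without WT replicate 2, and -0.05 in Ch25hKO (-0.134 to 0.003 over the alternatives), so neither kept a sign. In LXRdKO, Unc93b1, the escort of the nucleic acid sensors to endosomes, averaged 323 ± 4.78 CPM, against 247 ± 6.21 CPM in WT (SD, n = 2), a rise of 0.39 ± 0.05. The endosomal protease Ctss rose by 0.43 ± 0.06, and the folding factor Cnpy3 by 0.30 ± 0.08, a call lost without LXRdKO replicate 1. In Ch25hKO, the proteases Ctsk and Lgmn fell by 0.64 ± 0.10 and 0.26 ± 0.06, and the transporter Slc15a3 by 0.21 ± 0.06, on the log2 scale. The calls of Lgmn and Slc15a3 were lost without Ch25hKO replicate 1. With Ch25hKO replicate 1 left out, 1 gene of this list fell in Ch25hKO, and with Ch25hKO replicate 2 or WT replicate 1 left out, 3 fell. In LXRdKO, 0 fell with WT replicate 1 or either LXRdKO library left out, 5 fell with WT replicate 2 left out or at a minimum of 5 CPM, 4 with upper-quartile scaling and 2 with no filter. The 1 rise in Ch25hKO was lost with any library left out but WT replicate 1, without which 2 rose, and also with RLE scaling, DESeq2, the replicate block or a fit of the 4 libraries alone.

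Of 23 tested adaptors and proximal kinases, 7 rose and 2 fell in LXRdKO against WT (30.4% and 8.70%; median 0.02, or -0.01 to 0.07 over the alternatives), among them the adaptor Myd88 (0.29 ± 0.06) and the kinase Ikbke (0.34 ± 0.05), which rose, and the ubiquitin ligase Traf3 (-0.31 ± 0.06), which fell. In Ch25hKO against WT, 4 rose and 6 fell (17.4% and 26.1%; median 0.00, or -0.08 to 0.03), with the share that rose near that of all genes, the falling ones including Pik3ap1, an adaptor to phosphoinositide 3-kinase (-0.50 ± 0.06), the ubiquitin ligase Peli1 (-0.42 ± 0.06) and Ticam1, which encodes TRIF (-0.28 ± 0.05). With LXRdKO replicate 1 left out, 3 rose and 1 fell in LXRdKO, and with LXRdKO replicate 2 left out, 4 rose. With WT replicate 1 left out, 1 fell there, and with WT replicate 2 left out, 5 fell. With either Ch25hKO library left out, 1 rose and 3 fell in Ch25hKO. With DESeq2, 4 rose in LXRdKO, and 2 rose in Ch25hKO with DESeq2 or RLE scaling, while at a minimum of 5 CPM 5 fell in LXRdKO.

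Of 18 tested inhibitors of receptor signalling, 6 rose and 4 fell in LXRdKO against WT (33.3% and 22.2%; median -0.02, or -0.06 to 0.04 over the alternatives), including Lrrc33 (0.73 ± 0.06) and the adaptor Dok2 (0.53 ± 0.07), which rose, and the deubiquitinase Tnfaip3 (-0.51 ± 0.07), which fell. In Ch25hKO against WT, 4 rose and 3 fell (22.2% and 16.7%; median 0.01, or -0.02 to 0.02), both near the shares of all genes. The inhibitory Fc receptor Fcgr2b rose 1.67-fold (0.74 ± 0.05), Irak3, which encodes the inhibitory kinase relative IRAK-M, rose 1.57-fold (0.65 ± 0.05), and Nlrc3 fell by 0.93 ± 0.19 on the log2 scale at 1.30 ± 0.141 CPM in Ch25hKO, against 2.47 ± 0.12 CPM in WT (SD, n = 2). Without Ch25hKO replicate 1 or with RLE scaling, 2 rose, and without WT replicate 2, 5 fell. All genes named from the 4 lists passed the test with edgeR, and they are the 3 with the lowest p in each list and comparison.

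**Figure D5:**
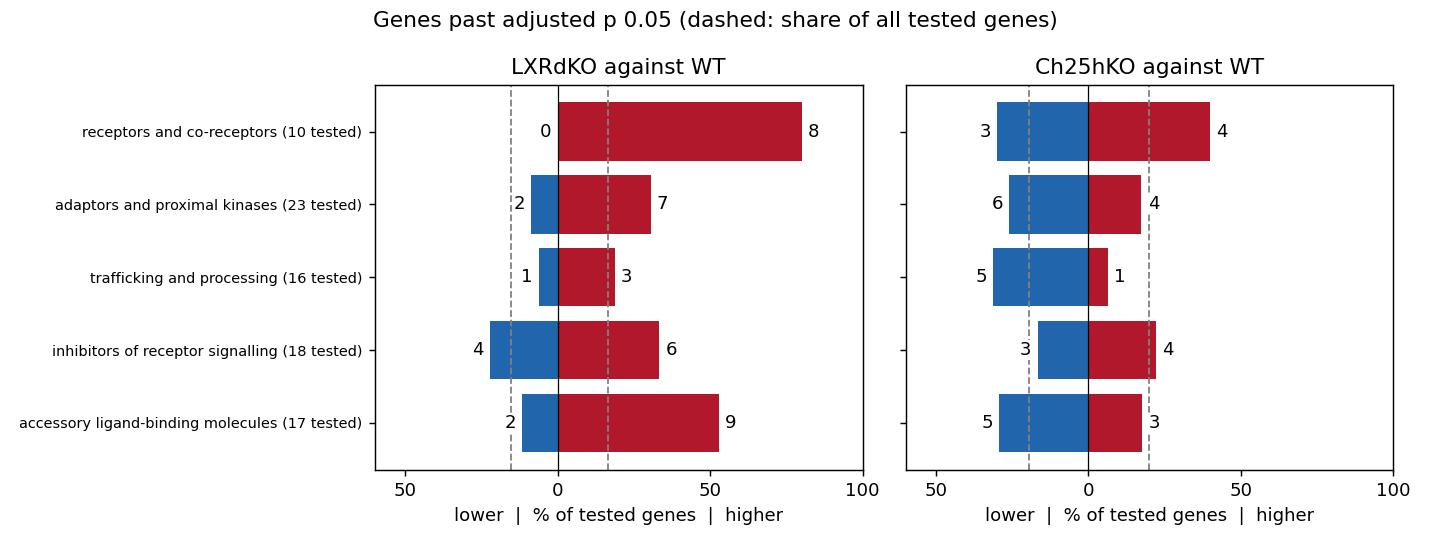
Share of the tested genes of each list that passed the threshold, higher (right, red) and lower (left, blue), in LXRdKO against WT and in Ch25hKO against WT, with the number of genes at each bar; dashed lines are the shares over all tested genes. The receptors and co-receptors show 8 higher and 0 lower in LXRdKO, against 4 higher and 3 lower in Ch25hKO.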

How the data were processed

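The data were 6 RNA-seq libraries in 3 groups of 2, with groups and replicate numbers taken from the sample titles. Per the labels' protocols, RNA was amplified with an Ovation kit before library construction, so reads are not independent molecules. The authors deposited raw counts per gene symbol, with no normalization. The submitters' processing notes name mm10 as the genome and list STAR 2.3.0, CASAVA and HTSeq. The sources used here do not give the annotation, the counting mode or any strand setting. Reads of near-identical genes may therefore be split or dropped.

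The table held 23337 gene symbols, 5683 of them without a count. In edgeR 4.0.16 (R 4.3.3), filterByExpr kept 12923 genes with 99.979% of the counts. TMM scaling was used, and robust quasi-likelihood models with 1 mean per genotype were fitted to all 6 libraries (3 residual and 14.4 prior degrees of freedom, biological coefficient of variation 4.41%). The standard error is the log2 fold change over the square root of F. CPM uses TMM-scaled library sizes. Alternatives were RLE and upper-quartile scaling, DESeq2 1.42.0, limma-voom (limma 3.58.1), no filter, a minimum of 5 CPM in 2 or more libraries, a fit limited to the 4 libraries under comparison, a replicate block, and leaving out every library once, when the lone library of a group was assumed to vary like the others. Gene models are those of GENCODE M21 (GRCm38). On simulated counts with known changes, the share of false calls lay somewhat above the nominal one in each comparison, and many changes of low-count genes were missed. The limit first set for recovery was not met, and was then set apart for low-count genes.

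The members, lists and naming rule were chosen with earlier results of these data known. Named are all 10 genes, the 3 deleted genes, the other Toll-like receptors, and from each of 4 lists the 3 called genes with the lowest p in each comparison with WT. No member overlaps another annotated gene. The values of some marker genes are not reported here.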

Additional observations from a re-analysis of the deposited data

How the results depend on the processing

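Over 30 member changes and 15 alternatives, 413 of 430 values kept their direction and side of the threshold, 8 fell short of it and 9 turned direction, none of them a called change. The 9 were of values near 0 in genes that did not pass. For Cd14 in Ch25hKO against WT they were -0.01 with RLE scaling and with DESeq2, -0.0044 with upper-quartile scaling, -0.0152 at a minimum of 5 CPM, and leaving out a library gave -0.0618 to 0.0598. Leaving out a library gave -0.0824 to 0.0044 for Tlr7 in Ch25hKO and -0.0754 to 0.0059 for Tlr2 in LXRdKO, both against WT. The 8 came from leaving out a library and stand beside Tlr2, Tlr4, Ly96 and Tlr6 above. Without 1 library, member counts ran from 8 to 8 higher and 0 to 0 lower in LXRdKO against WT, from 2 to 4 higher and 3 to 3 lower in Ch25hKO against WT, and from 6 to 7 higher and 0 to 1 lower in LXRdKO against Ch25hKO. Counts over all genes ran from 1292 to 2097 higher and 1198 to 2232 lower, from 1501 to 2478 higher and 1758 to 2750 lower, and from 1712 to 2930 higher and 1504 to 2828 lower in the same comparisons. The cause was not tested, and such fits have fewer libraries. Same-numbered libraries did not deviate together, with correlations of -0.01 for LXRdKO and WT, -0.11 for Ch25hKO and WT and 0.02 for both knockouts. With the replicate number as a block, 1913 genes were higher and 1843 lower in LXRdKO, 2372 and 2393 in Ch25hKO, and 2365 and 2256 between the knockouts, and with the numbers crossed, a fit added after the data were seen, 2682 and 2638 in Ch25hKO. No member call changed under either. With amplified RNA, read depth alone does not show how small the counting error is, and the 2 libraries per group limit the precision.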
